A study of Homo sapiens with 8 samples.

Results

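The genes described here copy DNA and supply its building blocks: 40 genes chosen by name, from the helicase loaded at origins to the enzymes that make deoxynucleotides. All 40 had probe sets with that single gene symbol, 781 in all, and 39 had a gene value among the 16145 genes tested. GINS4, a subunit of the GINS complex, was measured by only 2 probe sets and is given apart. The values come from Affymetrix human exon arrays of HEK293 cells, a human embryonic kidney line that carries the adenovirus E1A and E1B genes. The 4 groups were unstimulated control cells, control cells given EGF at 50 ng/mL for 1 h, unstimulated shELL cells and shELL cells given the same EGF, with 2 biological replicates in each. Control is the wild-type line, and shELL is a stable derivative of it made to deplete the elongation factor ELL, of which the sources used here do not say whether it was 1 clone. All cells grew in RPMI with serum, and in bulk RNA a different share of cells in S phase and a different amount of RNA per cell cannot be told apart.

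DNA replication starts when CDC6 and CDT1 load the MCM2 to MCM7 ring on origins in G1, and the GINS complex and MCM10 help to turn that ring into an active helicase in S phase. Primase and polymerase alpha lay down primers, the RFC complex loads the PCNA clamp, polymerases delta and epsilon extend, and FEN1 and LIG1 finish the lagging strand. Many of these genes are transcribed at the G1/S boundary by E2F factors, which the retinoblastoma protein holds in check. In HEK293 cells the E1A protein binds the retinoblastoma protein, and EGF in many cells drives entry into S phase only hours after the immediate-early genes have responded.

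Promoter sequences are shown because E2F control is a well known regulatory feature of replication genes that the choice by name did not use. RefSeq's promoter table on GRCh38.p14 held 34 of the 40 genes. The 250 bases before each start site were searched on both strands for the E2F spellings TTTCCCGC, TTTCGCGC, TTTGCCGC and TTTGGCGC. Matches may overlap each other. A gene was counted if any of its listed start sites had a match. At least 1 match lay before 13 of the 34 genes (38.2%), against 729 of 15843 protein-coding genes of that table (4.60%) and 928 of all 27305 genes (3.40%). MCM6 held 4 matches, MCM7 held 2 before 1 of its 3 listed starts, and CDT1 came first by alphabet among the 11 genes with 1. The 3 windows follow 5′ to 3′ in the direction of transcription, with the matches in capitals and the last base just before the start site. They lie at chr2:135876444-135876693 on the minus strand (MCM6), chr7:100101398-100101647 on the minus strand (MCM7) and chr16:88803539-88803788 on the plus strand (CDT1).
MCM6: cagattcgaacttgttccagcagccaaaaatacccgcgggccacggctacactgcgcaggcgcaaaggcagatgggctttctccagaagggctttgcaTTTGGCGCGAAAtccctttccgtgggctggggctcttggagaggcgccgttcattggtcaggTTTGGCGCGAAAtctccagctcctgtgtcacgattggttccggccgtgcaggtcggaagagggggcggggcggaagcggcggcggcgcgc
MCM7: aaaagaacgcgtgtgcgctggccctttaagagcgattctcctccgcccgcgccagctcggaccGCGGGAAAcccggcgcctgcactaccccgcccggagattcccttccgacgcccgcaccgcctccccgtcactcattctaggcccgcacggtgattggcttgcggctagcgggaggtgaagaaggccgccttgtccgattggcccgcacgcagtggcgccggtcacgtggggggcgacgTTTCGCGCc
CDT1: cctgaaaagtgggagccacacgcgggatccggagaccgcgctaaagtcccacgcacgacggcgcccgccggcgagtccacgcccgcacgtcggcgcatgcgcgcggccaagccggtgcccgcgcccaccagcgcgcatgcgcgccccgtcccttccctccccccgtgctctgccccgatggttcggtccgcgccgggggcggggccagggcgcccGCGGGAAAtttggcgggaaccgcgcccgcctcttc

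The MCM6 window held the same 12-letter stretch at 2 places, each a forward and a reverse match that overlap. The other genes with 1 match were MCM3, GINS2, PCNA, RFC3, POLA1, POLA2, POLE, LIG1, TYMS and UNG. The NF-Y letters CCAAT lay before 58.8% of the 34 genes and 40.2% of protein-coding genes, and the Sp1 letters GGGCGG before 73.5% and 62.1%. The E-box CACGTG was found before 17.6% against 9.73%, and the CHR letters TTTGAA before 5.88% against 14.2%. A match is a description of the letters, and the arrays hold no measurement of factor binding.

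**Figure D1:**
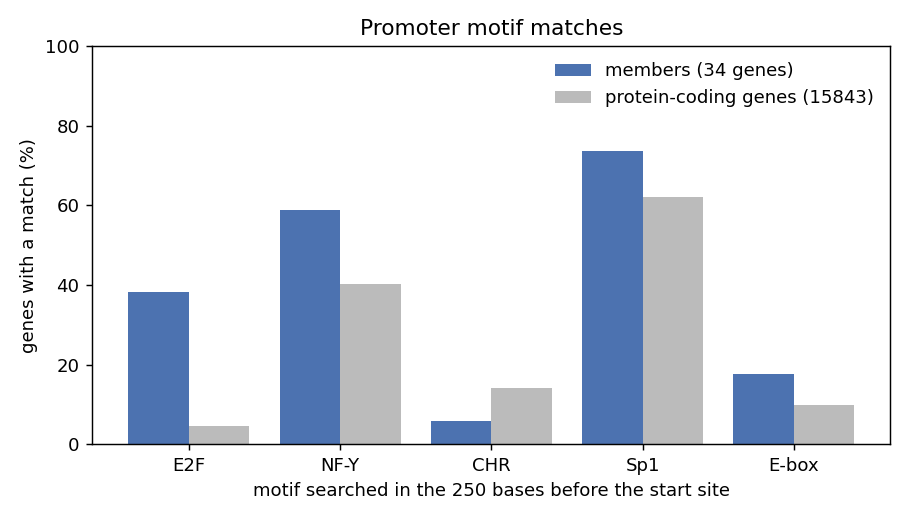
Percent of genes (y axis) with at least 1 match to each motif (x axis) in the 250 bases before a start site, for the 34 replication and nucleotide genes with a promoter entry (blue) and for 15843 protein-coding genes (grey). The E2F bars stand at 38.2% and 4.60%.

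Values are log2 gene values after quantile normalization, and levels of different genes cannot be set against each other because their probes differ. As a check of the stimulus, EGR1, an immediate-early transcription factor, differed between EGF and unstimulated arrays by 3.73 in control (limma adjusted p = 0.0208) and 3.43 in shELL (limma adjusted p = 0.0417). ELL itself was not lower in shELL (shELL minus control 0.40 over both EGF states, limma adjusted p = 1), so the labels alone say which arrays are depleted. It was at 2.54 and 2.50 in unstimulated control, 2.57 and 2.88 in control with EGF, 2.93 and 2.63 in unstimulated shELL, and 3.86 and 2.65 in shELL with EGF. Most of these values lie near or under the background of 2.77 defined below, where a depletion could not be seen. The value of 3.86 comes from the array described next. Replicate 1 of shELL with EGF stood apart, with the lowest deposited 75th percentile (2.17, against 3.20 to 5.16) and correlated with the remaining arrays, across genes, at a median of 0.814 (0.905 to 0.949 for the others). Of 11 HEK293 and embryonic kidney or neural markers, 7 lay above background, a level of 2.77 set by the 95th percentile of 45 olfactory receptor genes, and NEFM, NES, PAX2 and LHX1 did not. Markers of other cell types above it were 1 of 7 for fibroblasts, 2 of 7 for keratinizing epithelium, 0 of 4 for leukocytes, 0 of 4 for red cells and 0 of 2 for endothelium.

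Of the 39 genes, 34 had a mean over the 8 arrays above background and 29 were above it on every array. The means of CDT1, POLA2, POLD3, RPA2 and LIG1 were not above it. The range between the lowest and highest array ran from 0.39 for LIG1 and 0.40 for MCM2 to 1.89 for RPA1 and 2.13 for GINS2. Replicate 1 of shELL with EGF was the lowest array for 20 of the 39 genes, whereas it was the lowest for 25.2% of all genes. The highest value lay in replicate 2 of unstimulated control for 11 genes and in replicate 2 of shELL with EGF for another 11, against 11.3% and 9.18% of all genes. The plot of all 39 genes by array shows this block of low values in 1 array. Both unstimulated control arrays lay above the gene's mean for many genes, among them MCM5, MCM6, RFC4 and RRM1, and both below it for MCM2 and CDT1. No group kept the same colour on both arrays down the whole list.

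**Figure D2:**
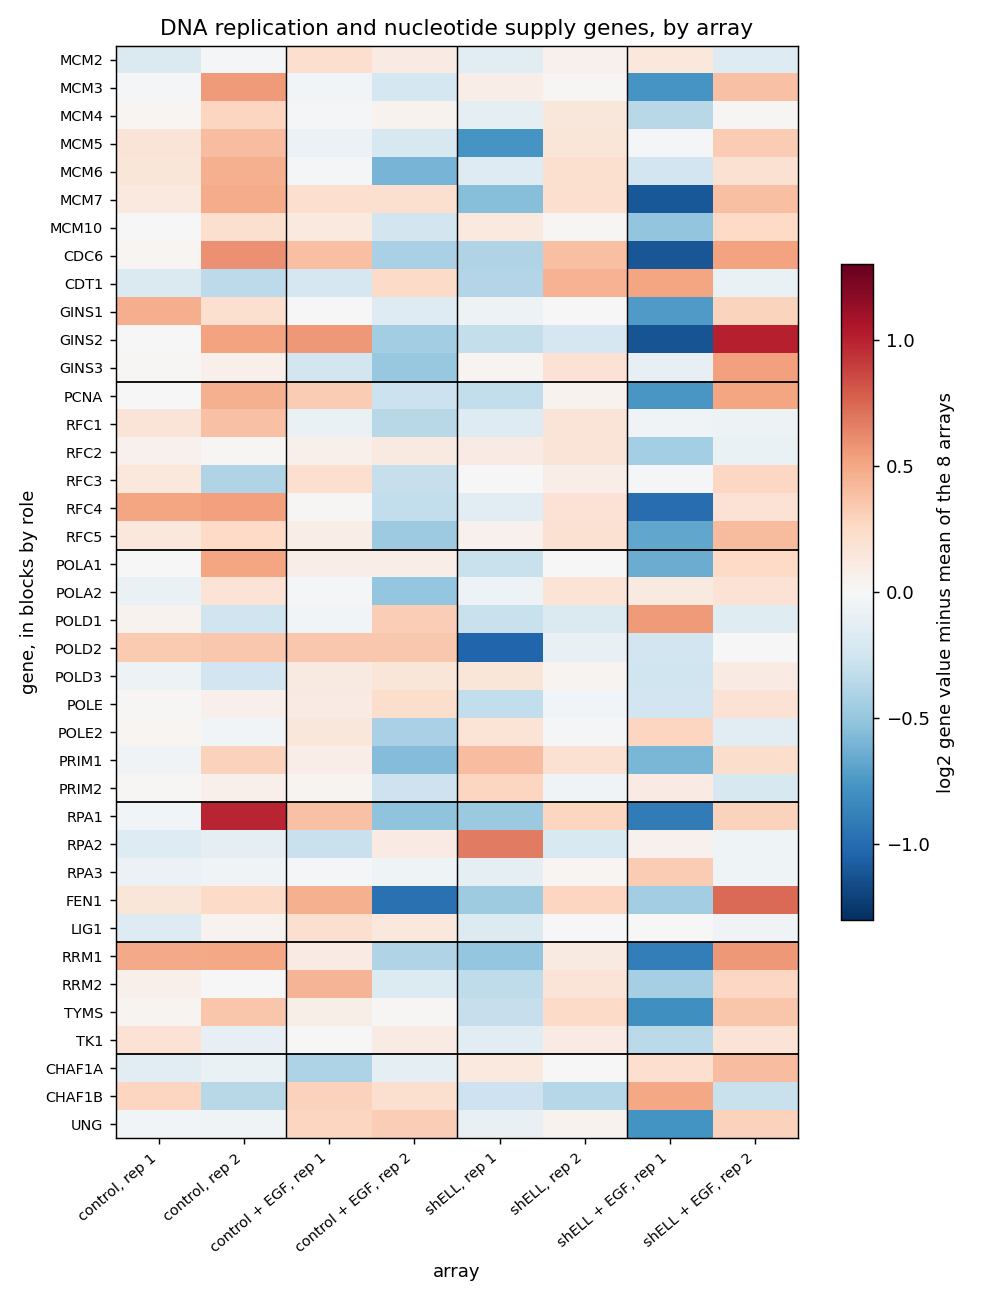
Log2 gene value minus the gene's mean over the 8 arrays (colour), for 39 replication and nucleotide genes (rows, in blocks by role) on the 8 arrays (columns). Blue cells gather in replicate 1 of shELL with EGF, the lowest array for 20 of the 39 genes.

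Among genes of helicase loading and activation, MCM2, a subunit of the MCM ring, was at 3.45 and 3.62 in unstimulated control, 3.85 and 3.74 in control with EGF, 3.49 and 3.69 in unstimulated shELL, and 3.77 and 3.46 in shELL with EGF. MCM7, the subunit whose promoter window is printed above, was at 5.93 and 6.29 in unstimulated control, 6.02 and 6.02 in control with EGF, 5.25 and 6.03 in unstimulated shELL, and 4.70 and 6.19 in shELL with EGF. CDC6, the loader of the ring, was at 4.18 and 4.75 in unstimulated control, 4.55 and 3.74 in control with EGF, 3.76 and 4.55 in unstimulated shELL, and 3.05 and 4.68 in shELL with EGF. MCM2 thus stayed within 0.40 across all arrays, while MCM7 and CDC6 were lowest in replicate 1 of shELL with EGF and overlapped between all pairs of groups. GINS2, of the GINS complex that completes the helicase, was at 5.01 and 5.53 in unstimulated control, 5.57 and 4.55 in control with EGF, 4.70 and 4.79 in unstimulated shELL, and 3.89 and 6.02 in shELL with EGF, with both values of shELL with EGF outside the range of the other arrays. MCM5, another ring subunit, was at 4.21 and 4.44 in unstimulated control, 3.97 and 3.83 in control with EGF, 3.28 and 4.20 in unstimulated shELL, and 4.03 and 4.37 in shELL with EGF. Its unstimulated shELL arrays both lay below the unstimulated control arrays, by unequal amounts. MCM6 was at 4.13 and 4.44 in unstimulated control, 3.96 and 3.37 in control with EGF, 3.81 and 4.19 in unstimulated shELL, and 3.73 and 4.17 in shELL with EGF. GINS3, a further GINS subunit, was at 3.13 and 3.18 in unstimulated control, 2.88 and 2.62 in control with EGF, 3.15 and 3.30 in unstimulated shELL, and 3.01 and 3.64 in shELL with EGF, so that both shELL arrays with EGF lay above both control arrays with EGF. MCM3, MCM4, MCM10, CDT1, which brings the ring to origins, and GINS1 ranged over 0.64 (MCM4) to 1.32 (MCM3) between arrays. The 2 probe sets of GINS4 ran from 2.08 to 5.32 and from 1.18 to 3.24 over the arrays and gave no common order.

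For the clamp and its loader, PCNA, the sliding clamp of the polymerases (chromosome 20, 5095649 to 5107225 as deposited, build not given in the sources used here), was at 5.28 and 5.74 in unstimulated control, 5.61 and 4.99 in control with EGF, 4.95 and 5.32 in unstimulated shELL, and 4.52 and 5.79 in shELL with EGF. Its range in shELL with EGF alone spanned the other groups. RFC4, a small subunit of the clamp loader, was at 4.27 and 4.30 in unstimulated control, 3.77 and 3.44 in control with EGF, 3.63 and 3.95 in unstimulated shELL, and 2.78 and 3.95 in shELL with EGF. RFC1, its large subunit, was at 3.53 and 3.75 in unstimulated control, 3.28 and 3.01 in control with EGF, 3.19 and 3.53 in unstimulated shELL, and 3.31 and 3.30 in shELL with EGF. Both loader genes were lower in each control array with EGF than in either unstimulated control array. RFC2 was at 4.47 and 4.43 in unstimulated control, 4.49 and 4.53 in control with EGF, 4.53 and 4.59 in unstimulated shELL, and 3.98 and 4.33 in shELL with EGF, and its control arrays lay close together. RFC3 and RFC5 ranged over 0.67 and 1.08 between arrays.

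Of the polymerases and primase, POLD2, the accessory subunit of polymerase delta (chromosome 7, 44154349 to 44161707 as deposited), was at 6.05 and 6.07 in unstimulated control, 6.06 and 6.06 in control with EGF, 4.69 and 5.62 in unstimulated shELL, and 5.47 and 5.71 in shELL with EGF. All 4 control arrays lay above all 4 shELL arrays, and replicate 1 of unstimulated shELL was the lowest. POLD1, the catalytic subunit of the same enzyme, was at 3.47 and 3.17 in unstimulated control, 3.39 and 3.74 in control with EGF, 3.14 and 3.24 in unstimulated shELL, and 3.98 and 3.27 in shELL with EGF, with no such division. POLA1, the catalytic subunit of polymerase alpha, was at 3.07 and 3.58 in unstimulated control, 3.16 and 3.16 in control with EGF, 2.78 and 3.07 in unstimulated shELL, and 2.43 and 3.33 in shELL with EGF. POLE2, the accessory subunit of polymerase epsilon, was at 3.02 and 2.96 in unstimulated control, 3.14 and 2.57 in control with EGF, 3.18 and 2.97 in unstimulated shELL, and 3.28 and 2.85 in shELL with EGF. PRIM1, the catalytic primase subunit, was at 4.27 and 4.61 in unstimulated control, 4.41 and 3.75 in control with EGF, 4.71 and 4.51 in unstimulated shELL, and 3.72 and 4.54 in shELL with EGF. POLE2 and PRIM1 overlapped between control and shELL in both EGF states. POLA2, POLD3, POLE and PRIM2 ranged over 0.42 (POLD3) to 0.69 (POLA2).

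For single-strand binding and the lagging strand, RPA2, a subunit of replication protein A, was at 2.56 and 2.60 in unstimulated control, 2.44 and 2.84 in control with EGF, 3.40 and 2.53 in unstimulated shELL, and 2.79 and 2.67 in shELL with EGF, above background on 3 of the 8 arrays. FEN1, the flap endonuclease, was at 3.30 and 3.40 in unstimulated control, 3.61 and 2.18 in control with EGF, 2.68 and 3.42 in unstimulated shELL, and 2.69 and 3.88 in shELL with EGF. Replicate 2 of control with EGF was its lowest array and replicate 2 of shELL with EGF its highest. RPA1, the large subunit, ranged over 1.89, RPA3 over 0.45 and LIG1, the ligase that seals Okazaki fragments, over 0.39.

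In nucleotide supply, RRM1, the large subunit of ribonucleotide reductase, was at 4.97 and 4.98 in unstimulated control, 4.58 and 4.09 in control with EGF, 3.98 and 4.60 in unstimulated shELL, and 3.58 and 5.04 in shELL with EGF. RRM2, its small subunit, was at 5.01 and 4.95 in unstimulated control, 5.38 and 4.76 in control with EGF, 4.61 and 5.11 in unstimulated shELL, and 4.51 and 5.21 in shELL with EGF. RRM1 was near-equal in both unstimulated control arrays and lower in each unstimulated shELL array and each control array with EGF, while RRM2 overlapped between every pair of groups. TYMS, thymidylate synthase, was at 5.48 and 5.80 in unstimulated control, 5.52 and 5.45 in control with EGF, 5.14 and 5.69 in unstimulated shELL, and 4.64 and 5.80 in shELL with EGF, with its lowest value in replicate 1 of shELL with EGF. TK1, thymidine kinase, ranged over 0.54.

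In chromatin assembly and uracil removal, CHAF1A, the large subunit of chromatin assembly factor 1 (chromosome 19, 4402730 to 4443370 as deposited), was at 3.08 and 3.15 in unstimulated control, 2.83 and 3.11 in control with EGF, 3.35 and 3.24 in unstimulated shELL, and 3.45 and 3.63 in shELL with EGF. All 4 shELL arrays lay above all 4 control arrays. CHAF1B, its middle subunit, was at 5.48 and 4.85 in unstimulated control, 5.50 and 5.42 in control with EGF, 4.94 and 4.84 in unstimulated shELL, and 5.71 and 4.92 in shELL with EGF, and the groups compared overlapped. UNG, the uracil-DNA glycosylase, was at 3.82 and 3.82 in unstimulated control, 4.14 and 4.18 in control with EGF, 3.77 and 3.91 in unstimulated shELL, and 3.09 and 4.16 in shELL with EGF. Its control arrays with EGF were above the unstimulated ones, and its shELL arrays with EGF lay on both sides of the unstimulated ones.

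**Figure D3:**
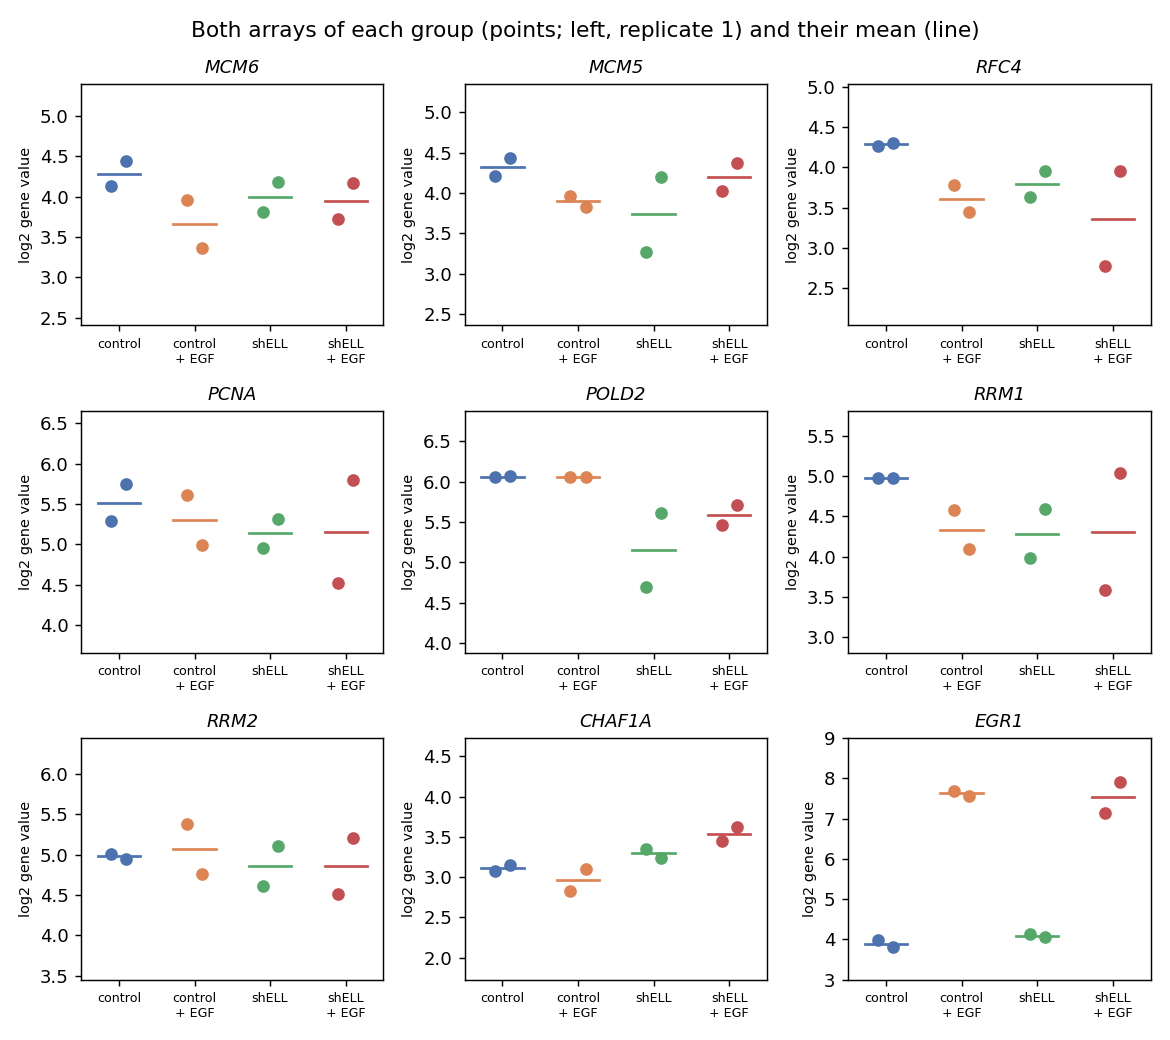
Log2 gene value (y axis) on both arrays of each group (points, replicate 1 on the left) with the group mean (line), for 8 replication genes and EGR1; the 8 share a y range of equal width and EGR1 has a wider one. POLD2 control arrays sit at 6.05 to 6.07 above all shELL arrays, and EGR1 separates with EGF in both lines.

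The comparison of EGF with no EGF in control cells addressed whether replication genes respond within the first hour of growth factor. No replication gene was called: 0 of 39 had a limma adjusted p under 0.05 and 0 an unadjusted p under 0.05, where 0.00619% of all genes were called (EGR1 alone) and 2.69% had an unadjusted p under 0.05. The log2 differences, EGF minus unstimulated, ran from -0.67 (RFC4) to 0.34 (UNG), with 24 below 0, against 41.9% of all genes, and 15 above. Their median was -0.154 and that of all genes 0.070. The 95% intervals lay between -1 and 1, a 2-fold difference either way, for 17 of the 39 genes, as for 37.8% of all genes. For the other genes the interval reached past a 2-fold difference. Values below 0 were found for 10 of 12 helicase genes, 4 of 6 of the clamp and its loader, 5 of 9 polymerase and primase genes, 2 of 5 of single-strand binding and the lagging strand, 2 of 4 of nucleotide supply and 1 of 3 of chromatin assembly and uracil removal. The smallest p-values were those of MCM6 (-0.62, 95% interval -1.39 to 0.14, limma adjusted p = 0.996), RFC1 (-0.50) and RFC4 (-0.67). Of the probe sets used, 16 of 18 for MCM6, 25 of 30 for RFC1 and 10 of 13 for RFC4 were lower with EGF. The gene values were summarised from these same probe sets on the same arrays. Such counts, here and below, therefore describe the gene values and add no separate evidence. Both EGF arrays lay above both unstimulated arrays for 6 genes, against 24.5% of all genes, and below for 9, against 15.7%. Fits without 1 array, here and below, repeated normalization, filter and gene summary. A value could therefore move even when the array left out was in neither group compared. Leaving out replicate 2 of control with EGF brought the median to 0, and as each array was left out MCM6 ran from -0.36 to -0.89, RFC1 from -0.16 to -0.67 and RFC4 from -0.34 to -0.99. GAPDH, a glycolytic enzyme, was also lower in both control arrays with EGF (7.48 and 6.85, against 8.03 and 9.10), and whether that bears on the replication genes was not tested.

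The same comparison in shELL cells again gave no called replication gene. With limma 0 of 39 genes had an adjusted and 0 an unadjusted p under 0.05, against 0.00619% of all genes called, again EGR1 alone, and 2.47% with an unadjusted p under 0.05. The differences ran from -0.48 (PRIM1) to 0.46 (MCM5), with 21 below 0, against 49.8% of all genes, and 18 above. Their median was -0.043 beside 0.001 for all genes. Only 18 of the 39 intervals lay between -1 and 1, as did 38.5% over all genes. The smallest p-values were those of RFC2 (-0.41, 95% interval -1.04 to 0.23, limma adjusted p = 1), POLD1 (0.43) and MCM5. Of the probe sets used, 9 of 14 for RFC2 were lower with EGF, and 19 of 30 for POLD1 and 16 of 23 for MCM5 were higher. Both EGF arrays lay above both unstimulated arrays for POLD1 and CHAF1A (2 of 39, against 10.4% of all genes) and below for RFC2 (1 of 39, against 11.5%). The median was 0.145 when the array that stood apart was left out and -0.233 when its replicate was. It was also above 0, at 0.006 and 0.015, when replicate 1 of control with EGF or replicate 2 of unstimulated shELL was dropped. As each array was left out RFC2 ran from -0.17 to -0.48, POLD1 from 0.10 to 0.66 and MCM5 from 0.01 to 0.85. MCM5 was -0.27 and POLD1 -0.08 with array median centring, and -0.72 and -0.52 on the values as deposited. The median of all genes was also below 0 under both scalings, as given in the last section.

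Averaged over the lines, EGF minus unstimulated had the narrowest intervals for the stimulus. They lay between -1 and 1, a 2-fold difference either way, for 33 of the 39 genes, as for 73.5% of all genes. The differences ran from -0.55 (RFC4) to 0.36 (CHAF1B). RFC4 was at 4.04 ± 0.31 (SD, n = 4) unstimulated and 3.49 ± 0.52 (SD, n = 4) with EGF, a difference with a 95% interval of -1.19 to 0.09 (limma adjusted p = 0.901). Leaving out single arrays gave -0.19 (replicate 1 of shELL with EGF) to -0.87 (replicate 2 of that group). PRIM1 differed by -0.42 and POLD1 by 0.34, the latter at -0.25 on the values as deposited. The median of all genes was also below 0 on those values, as given in the last section. PRIM1 and POLD1 were both smallest when replicate 1 of shELL with EGF was left out, at -0.18 and 0.18. PCNA differed by -0.10 with an interval of -0.82 to 0.62, MCM2 by 0.15 (-0.31 to 0.60) and RRM2 by 0.05 (-0.54 to 0.64), all within 2-fold either way. No gene was called (0 of 39 with limma, against 0.00619% of all genes). At an unadjusted p under 0.05 there were 0 of 39, against 3.17% of all genes. For 0 genes did the EGF arrays all lie above or all below the unstimulated ones, where 1.58% of all genes lay above and 1.13% below. The median was -0.104, and 0.045 for all genes. It was 0.036 when replicate 1 of shELL with EGF was dropped.

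**Figure D4:**
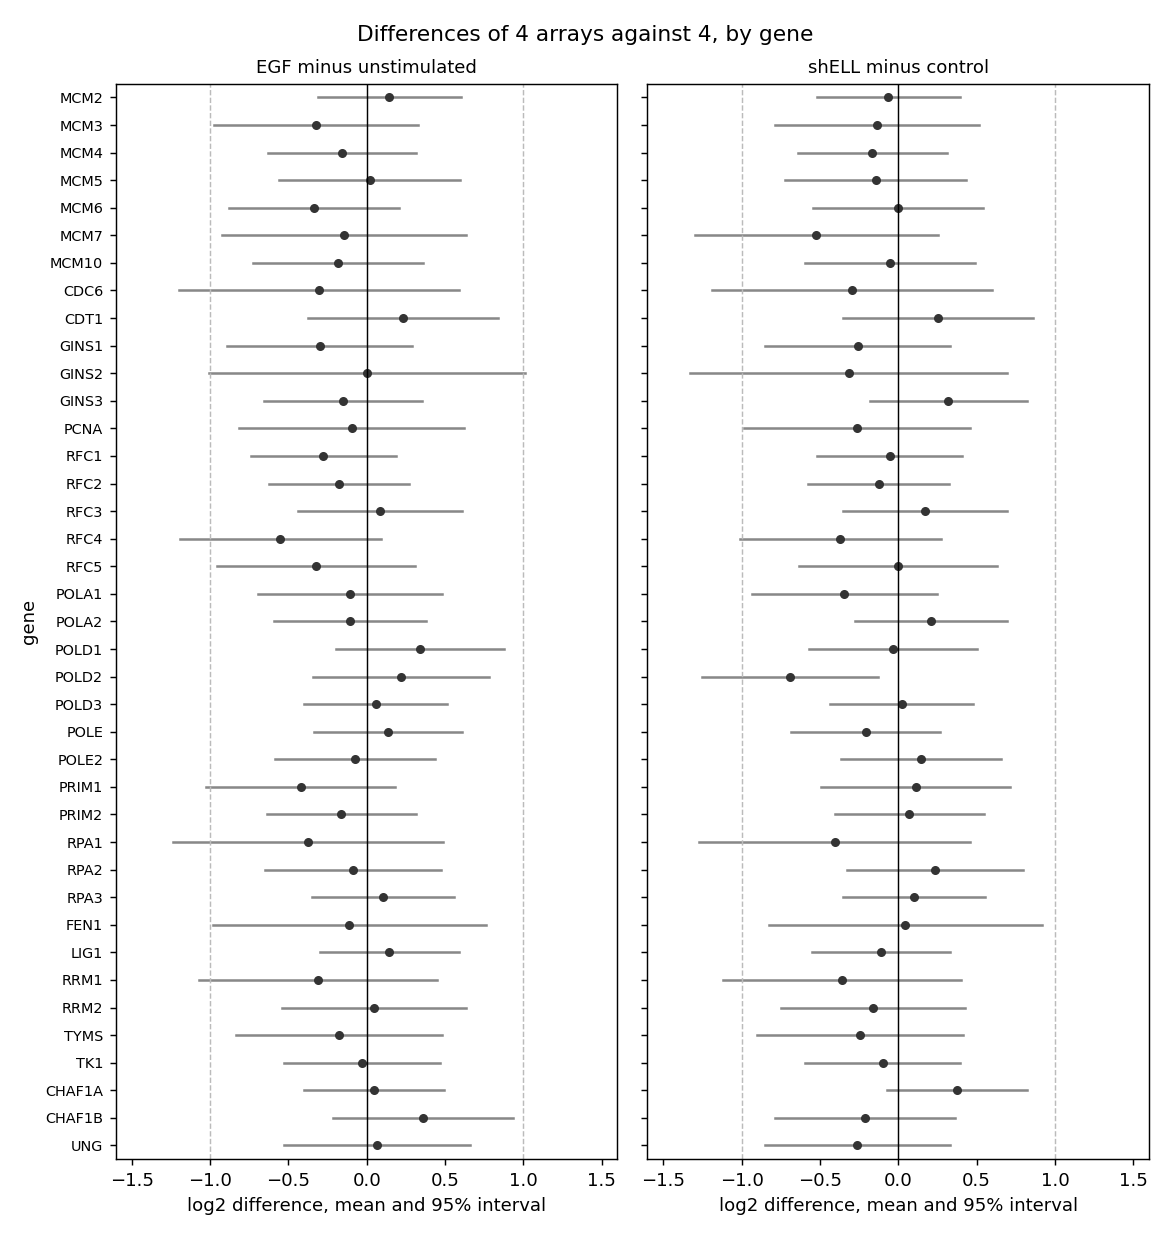
Log2 difference (x axis, point) with its 95% interval (line) for 39 genes (y axis), EGF minus unstimulated over both lines (left) and shELL minus control over both EGF states (right), 4 arrays against 4; dashed lines mark a 2-fold difference. Intervals include 0 for all genes on the left and for all but POLD2 on the right.

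Without EGF, the comparison of shELL with control asked how replication genes differ between the lines. POLD2 gave the largest value: shELL minus control was -0.91 (95% interval -1.70 to -0.12, limma adjusted p = 1), from 6.06 ± 0.01 to 5.15 ± 0.66 (SD, n = 2 each). It did not pass over all genes. It was -0.28 when replicate 1 of unstimulated shELL was left out and -1.31 when replicate 2 was, and leaving out either control array with EGF or replicate 1 of unstimulated control gave -0.56 to -0.59. MCM5 (-0.59) and RRM1 (-0.69) followed, with 18 of 23 and 20 of 25 probe sets lower in shELL. MCM5 was -0.15 when replicate 1 of unstimulated shELL was left out and 0.05 on the values as deposited. RRM1 was -0.08 when that array was left out, -0.42 to -0.47 when any other was, and -0.06 on the values as deposited. RRM1 thus also moved when arrays outside this comparison were left out, and so did POLD2. Which of the repeated steps, normalization, filter or summary, moved them was not tested. In the summary of all 8 arrays RRM1 was at 4.60 in replicate 2 of unstimulated shELL, against 4.97 and 4.98 in unstimulated control. On the values as deposited the median of all genes lay well above 0 here, as given in the last section. MCM5 and RRM1 remained below that median. In all, limma called 0 of the 39 genes, and 1, POLD2, was under 0.05 unadjusted, against 0% and 1.28% of all genes. Values below 0 were found for 4 of 4 nucleotide supply genes, 9 of 12 helicase genes, 4 of 6 of the clamp and its loader, 4 of 9 polymerase and primase genes, 3 of 5 of single-strand binding and the lagging strand and 1 of 3 of chromatin assembly and uracil removal. In all 25 were below 0, against 46.3% of all genes, and 14 above, with a median of -0.132 beside 0.028 for all genes. Both shELL arrays lay above both control arrays for 3 genes (against 15% of all genes) and below for 8 (against 13.4%). Only 20 of the 39 intervals lay between -1 and 1, as did 42.9% over all genes. Replicate 1 of unstimulated shELL had 11 genes more than 0.5 below the unstimulated control mean and replicate 2 had 0, a difference between the arrays of 1 group. The share of all genes that far below was not counted.

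With EGF present, CHAF1A and GINS3 had the smallest p-values between the lines, both higher in shELL. CHAF1A differed by 0.57 (95% interval -0.06 to 1.20, limma adjusted p = 1) and GINS3 by 0.57 (-0.14 to 1.29), while UNG differed by -0.54. For GINS3 5 of 8 probe sets were higher, with a median of 0.10. The control arrays with EGF for GINS3, at 2.88 and 2.62, lay on both sides of the background of 2.77. None passed: limma called 0 of 39 genes, and 0 were under 0.05 unadjusted, against 0% and 3.17% of all genes. Both shELL arrays lay above both control arrays for 5 genes (against 9.62% of all genes) and below for 4 (against 14.5%). Only 20 of the 39 intervals lay between -1 and 1, as did 37.8% over all genes. CHAF1A ran from 0.15 to 0.52 and GINS3 from 0.14 to 0.98 as each array was left out. For CHAF1A every such value lay below 0.57, also for arrays outside this comparison. Which of the repeated processing steps moved it was not tested. UNG was -0.07 when replicate 1 of shELL with EGF was left out and -1.09 when replicate 2 was. The median was -0.110 beside -0.039 for all genes. It was 0.148 when replicate 1 of shELL with EGF was dropped and 0.092 when replicate 1 of control with EGF was.

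Averaged over both EGF states, POLD2 was at 6.06 ± 0.01 (SD, n = 4) in control and 5.37 ± 0.47 (SD, n = 4) in shELL, a difference of -0.69 (95% interval -1.25 to -0.13, limma adjusted p = 1), lower in 4 of 4 shELL arrays. Of its 15 probe sets 14 were lower in shELL. The difference was -0.26 when replicate 1 of unstimulated shELL was left out, and -0.36 to -0.39 when replicate 2 of control with EGF, replicate 1 of shELL with EGF or replicate 1 of unstimulated control was. CHAF1A was at 3.04 ± 0.14 and 3.42 ± 0.16 (SD, n = 4 each), a difference of 0.37 (-0.07 to 0.82, limma adjusted p = 1), higher in 4 of 4 arrays and in 16 of 24 probe sets. It was 0.14 when replicate 1 of control with EGF was left out and 0.17 to 0.24 when either unstimulated control array was. Normalization, filter and summary were repeated in these fits, as in those of POLD2, so the part of the named arrays alone was not tested. MCM7 differed by -0.52 with overlapping arrays, by -0.17 when replicate 1 of shELL with EGF was left out and by -0.79 when replicate 2 was. Of the 39 genes 0 were called by limma, against 0% of all genes. POLD2 alone (1 of 39) had an unadjusted p under 0.05, a share near the 2.64% of all genes. CHAF1A was the 1 gene with all shELL arrays higher (against 1.11% of all genes) and POLD2 the 1 with all lower (against 1.47%). The median was -0.111 beside -0.003 for all genes, or 0.005 when replicate 1 of shELL with EGF was dropped, and 32 of 39 intervals lay between -1 and 1, as did 79.2% over all genes.

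The interaction, which subtracts the EGF difference of control cells from that of shELL cells, asked whether the lines differ in their response. MCM5 had the smallest p: its EGF difference was -0.42 in control and 0.46 in shELL, an interaction of 0.89 (95% interval -0.26 to 2.04, limma adjusted p = 1). It was 0.23 when replicate 1 of unstimulated shELL was left out, 0.39 and 0.48 when replicate 2 of unstimulated control or of shELL with EGF was, -0.09 with array median centring and -0.32 on the values as deposited. MCM6 (0.57) and RFC2 (-0.46) followed, and MCM6 was -0.28 and -0.48 under those scalings. The median of all genes was lower still than MCM5 and MCM6 under both scalings, as given in the last section. As each array was left out MCM6 ran from 0.21 to 0.89 and RFC2 from -0.23 to -0.53. Of the probe sets used, 17 of 23 for MCM5 and 12 of 18 for MCM6 were above 0, and 8 of 14 for RFC2 below 0. Among the 39 genes limma called 0, and 0 were under 0.05 unadjusted, against 0% and 1.73% of all genes. Only 3 of 39 intervals lay between -1 and 1, and for the others the interval reached past a 2-fold difference in response. The median was 0.125 beside -0.066 for all genes, and it was below 0 without replicate 2 of control with EGF (-0.092), replicate 2 of shELL with EGF (-0.106) or replicate 1 of unstimulated shELL (-0.008).

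The largest difference between replicates was 0.93 to 2.13 in size over the groups, above the largest between group means (POLD2 without EGF, -0.91). The former is 1 array minus another and the latter a mean of 2 arrays minus a mean of 2, which varies less. In shELL with EGF 29 of the 39 genes were higher in replicate 2, by a median of 0.446, and 22 differed by more than 0.5, up to 2.13 for GINS2. All genes together had a median of -0.097 there. In size, regardless of sign, the median difference was 0.635 for the 39 genes and 0.594 for all genes. Most of all genes thus also differed by more than 0.5 between these arrays. In unstimulated shELL 30 genes were higher in replicate 2 (median 0.203) and in unstimulated control 28 (median 0.066), whereas in control with EGF 28 were lower in replicate 2 (median -0.167). The medians of all genes ran the other way, at -0.070, -0.099 and 0.053. Arrays with lower replication values within a group also had lower GAPDH, at 8.03 against 9.10, 6.85 against 7.48, 6.64 against 8.23 and 6.61 against 8.72. The same arrays had the lower 75th percentile of all deposited values in each group. In the same order it was 3.44 against 4.21, 3.20 against 3.92, 3.60 against 5.16 and 2.17 against 4.65. Over the 39 genes the mean of the probe sets nearer the 3′ end, minus that of those nearer the 5′ end, was -0.23 to -0.44 over the arrays, and lowest in replicate 1 of shELL with EGF. The part of these array properties in the differences was not tested.

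**Figure D5:**
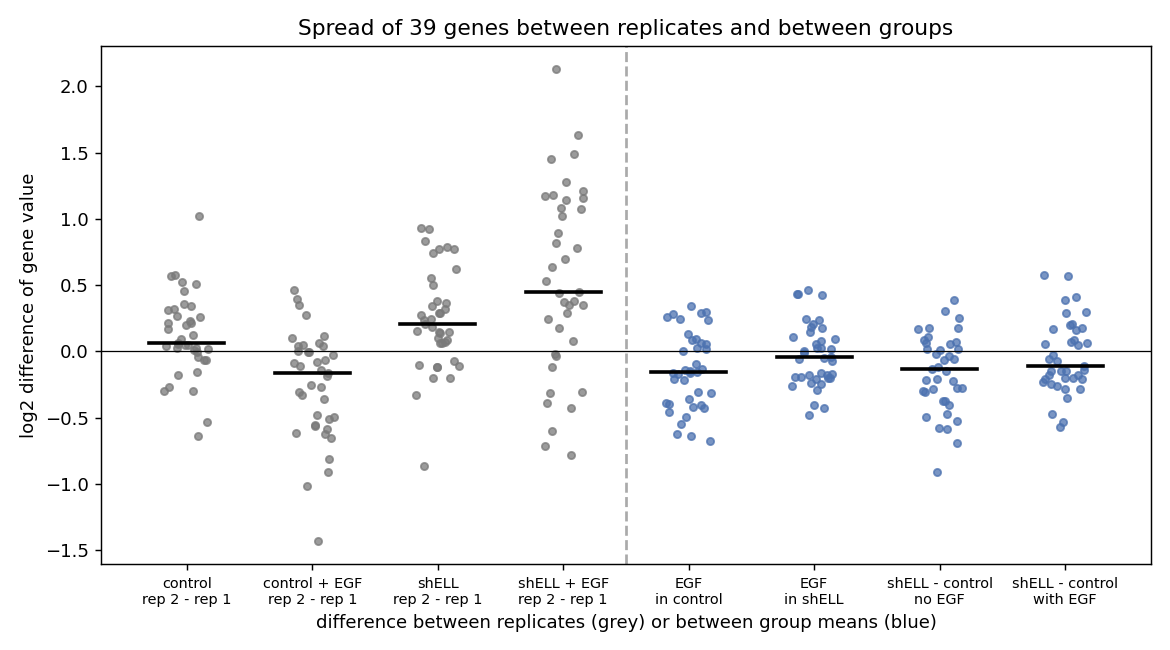
Log2 differences (y axis) of the 39 genes (points) with their median (bar), between replicates of each group (grey, replicate 2 minus replicate 1) and between group means (blue). The replicates of shELL with EGF reach 2.13 apart, beyond every difference between groups. Grey points compare single arrays and blue points means of 2 arrays, which vary less.

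Single probe sets were tested as well, a step added after the gene values were seen. Of 729 probe sets of the 40 genes, GINS4 included, 0 were called with limma in each of the 7 comparisons. An unadjusted p under 0.05 was found for 36 (4.94%) with EGF in control, against 3.36% of all probe sets, and for 7 (0.960%) between the lines without EGF, against 1.21%.

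Other genes of the pathway were read from a list of origin recognition and firing factors, further polymerase and maturation subunits, nucleotide enzymes, replication-coupled chromatin factors and G1/S regulators. Of 79 measured, 0 were called higher and 0 lower with limma in each comparison, and 0 to 2 had an unadjusted p under 0.05. Of all genes 0.00619% were called in each EGF comparison and 0% in the others, and 1.28% to 3.17% had an unadjusted p under 0.05, so these counts lie near those of all genes. CCND1, cyclin D1, which links growth factors to G1, was at 3.04 and 2.64 in unstimulated control, 3.52 and 3.57 in control with EGF, 3.06 and 3.35 in unstimulated shELL, and 3.15 and 3.51 in shELL with EGF, a difference of 0.70 with EGF in control (limma adjusted p = 0.996). CDKN1B, the CDK inhibitor p27, differed there by -0.96. EXO1, an exonuclease, differed by -1.04 and ASF1A, a histone chaperone, by -0.99 with EGF over both lines. In shELL with EGF, EXO1 differed by -1.16 and DSCC1, of an alternative clamp loader, by -0.71. EXO1 was at 4.99 and 5.67 in unstimulated control, 4.64 and 4.19 in control with EGF, 5.28 and 5.36 in unstimulated shELL, and 3.22 and 5.12 in shELL with EGF, so its difference in shELL lay mainly in replicate 1 with EGF, the array that stood apart. That array was also the lowest of the 8 for ASF1A, DTYMK and ORC5. Between the lines without EGF, DBF4, the activator of the origin-firing kinase CDC7, differed by -0.69 and ORC5, a subunit of the origin recognition complex, by -0.62. With EGF, DTYMK, thymidylate kinase, differed by -0.84 and DSCC1 by -0.79, and over both EGF states ORC5 by -0.57 and DTYMK by -0.67. In the interaction DSCC1 stood at -1.20 and TFDP1, an E2F partner, at 0.98. DSCC1 and DBF4 were not above background over the 8 arrays, and none of these values passed.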

How the data were processed

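Human exon arrays of 8 HEK293 samples in 4 groups were analysed. The authors deposited a log2 value per probe set and array, for which the submitters' processing notes name Affymetrix Expression Console and RMA (versions and genome build: not given in the sources used here). Gene symbols and positions came from a further deposited table of log2 group means by the authors. Since array medians differed, values were quantile normalized. Probe sets with 1 gene symbol (280649 of 287329) and a mean at or above the 25th percentile were kept, and genes with at least 3 were summarised by median polish (at most 10 iterations).

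All 16145 genes were fitted with limma 3.58.1 in R 4.3.3 (group means over 8 arrays, 4 residual degrees of freedom), with two-sided p-values adjusted by Benjamini-Hochberg at 0.05 in each of 7 comparisons. The fit was checked on simulated gene values with known differences added to control with EGF. These had an equal spread for all genes and arrays, unlike the data here. The check therefore does not cover the array that stood apart. The number of arrays, 2 per group, limits precision. The p-values set a difference against the spread between these samples. That spread was moderated by limma with 4.94 prior degrees of freedom drawn from all genes.

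The members and lists were chosen with earlier results of these data known. Every array value is given for 14 role representatives and the 3 members of smallest p in each comparison. Figures used matplotlib 3.10.9 under Python 3.11.15. Alternatives covered normalization, filter, summary, variance model, arrays in the fit, a replicate block and each array left out, with normalization, filter and summary repeated. Replicate differences (2 minus 1) correlated across genes at -0.16 between the control groups, 0.51 between the shELL groups, 0.37 without and -0.31 with EGF, so the numbers were not taken to pair samples.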

Additional observations from a re-analysis of the deposited data

How the results depend on the processing

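In all 130 alternative counts over the 7 comparisons, 0 of the 39 genes were called, among them the fits with the replicate block and on the values as deposited; with the block the median stayed at -0.154 for EGF in control. Exchanging the replicate numbers of control with EGF in that block, added after seeing the data because their differences correlated negatively with those of unstimulated control, also called 0. Of 348 alternative values of the 3 members of smallest p in each comparison 0 were called and 10 changed sign. The median difference of the members moved by more than 0.168, the SD of the array medians between replicates, in 14 of 98 alternatives and changed sign (or came to 0) in 16. On the values as deposited it was -0.571 for EGF over the lines, -0.916 for EGF in shELL, 0.490 for shELL against control without EGF, 0.089 over both EGF states and -0.612 for the interaction, beside all-gene medians of -0.363, -0.685, 0.486, 0.148 and -0.663. With array median centring it was -0.448 for EGF in shELL, 0.137 for shELL against control without EGF and -0.341 for the interaction, beside -0.247, 0.177 and -0.431 for all genes. With each array left out in turn it ran from -0.212 to 0 for EGF in control, -0.233 to 0.145 for EGF in shELL, -0.176 to 0.036 for EGF over the lines, -0.204 to -0.033 for shELL against control without EGF, -0.210 to 0.148 with EGF, -0.156 to 0.005 over both states and -0.106 to 0.267 for the interaction. The cause was not tested. Signal over background limits CDT1, POLA2, POLD3, RPA2 and LIG1, whose means were not above it. It also limits RPA3, above background on 4 of 8 arrays, FEN1 on 5, and GINS3, POLA1 and POLE2 on 7 each.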
